A study of Mus musculus with 8 samples.

Results

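The genes described here are 10 genes of lipid handling centred on the nuclear receptor PPAR-gamma: Pparg, Nr1h3, Lpl, Cd36, Fabp4, Fabp5, Plin2, Abca1, Abcg1 and Apoe. They were read from arrays of dendritic cells sorted from the bone marrow and the spleen of the same 4 mice, with 1 array per tissue and mouse and 8 arrays in all. The bone marrow group is labelled myeloid dendritic cells in the titles and, more broadly, myeloid cells in the source field, and the spleen group is labelled classical dendritic cells. Both groups came from mice aged 8 weeks of the genotype CX3CR1-gfp/+, in which a green fluorescent protein gene takes the place of 1 copy of the fractalkine receptor gene, so no array lacks that allele. The labels name no sorting gate and no drug or other treatment. All 10 genes, of 19938 with a value, were measured by a probe set that the platform annotation assigns to a single gene. Where a gene had several such probe sets, one was chosen by its mean log2 intensity over all 8 arrays, which touched only Fabp5, with 2. The gene list itself was drawn up with earlier comparisons of these arrays known, so each test below describes its own gene, and the number of genes that moved together is not independent evidence.

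PPAR-gamma is a transcription factor that binds fatty acids and their derivatives and, paired with a retinoid X receptor, switches on genes for taking up, carrying and storing fat. It is best known from adipocytes, and among myeloid cells it is prominent in the macrophages of the lung. Nr1h3 encodes LXR-alpha, a related receptor that senses oxidised cholesterol and drives cholesterol export through the transporters encoded by Abca1 and Abcg1 and the carrier protein apolipoprotein E. Lpl, Cd36, Fabp4 and Plin2 are commonly listed as PPAR targets, and PPAR-gamma can also raise Nr1h3 in macrophages, which links the 2 receptors.

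Of the 10 genes, 9 were higher in bone marrow than in spleen at an adjusted p under 0.05, none was lower, and Fabp5 did not pass. Among all genes, 18.5% passed that threshold, 9.26% higher and 9.2% lower in bone marrow. At least a 2-fold rise together with the threshold was met by 8 of the 10 genes, against 2.02% of all genes. In 9 of the 10 genes every bone marrow array lay above every spleen array, against 10.4% of all genes. The median log2 fold change (bone marrow minus spleen throughout) was 2.27 over the 10 genes and -0.0071 over all genes. Because these are sorted cell populations measured in bulk, a difference in the share of cells that express a gene and a difference in RNA per cell cannot be told apart. The labels call the arrays biological replicates. Levels are deposited probe set intensities, and groups are summarised by their geometric mean. Fold changes carry the standard error (SE) of limma, a linear model that pools information on spread across genes, and its p-values were adjusted over all genes. The intensities have no detection call, so whether the lowest values lay above background is unknown.

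**Figure D1:**
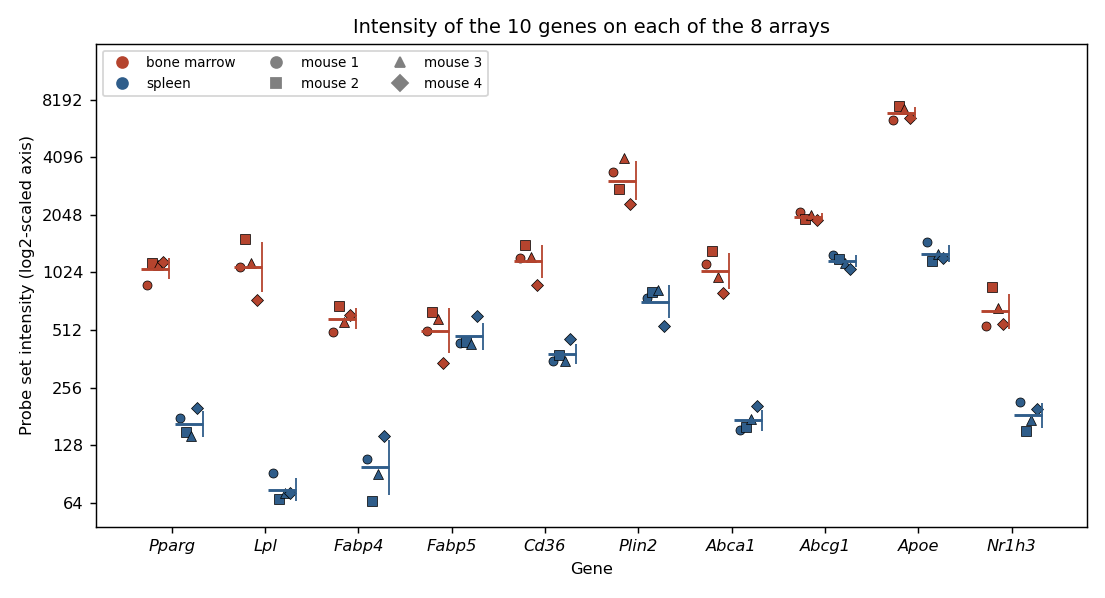
Probe set intensity (log2-scaled axis) of the 10 genes on each array, with bone marrow in red, spleen in blue, 1 symbol per mouse, a bar at the geometric mean and a line spanning 1 SD of the log2 values on either side. The colours are separate for every gene but Fabp5, where the bone marrow arrays run from 346 to 640 and the spleen arrays from 435 to 606.

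The receptors came first. Pparg stood at 884, 1151, 1119 and 1167 in bone marrow of mice 1 to 4 and at 177, 149, 143 and 201 in spleen. All 4 bone marrow arrays were more than 4-fold above the highest spleen array, and the lowest bone marrow array was that of mouse 1. The rise was 6.47-fold (log2 fold change 2.69 ± 0.12, SE with n = 4 in each tissue, limma adjusted p = 9.5e-09). Nr1h3, which encodes LXR-alpha, stood at 539, 856, 664 and 551 in bone marrow and at 215, 152, 174 and 199 in spleen. The groups did not overlap, and mouse 2 had both the highest bone marrow and the lowest spleen value. Nr1h3 was 3.50-fold higher (1.81 ± 0.15, limma adjusted p = 1.6e-06). The rise of Pparg exceeded that of Nr1h3 by 0.89 on the log2 scale. The per-array difference between the 2 genes ran from 0.43 to 1.08 in bone marrow and from -0.28 to 0.02 in spleen (exact two-sided permutation test over the 8 arrays, p = 0.0286, adjusted p = 0.0286 over the 4 pairs of genes compared, the smallest these arrays allow). Permuted within mice instead (replicate block), an exact permutation test gave an adjusted p of 0.12 for this pair and each of the 3 pairs below. That is the smallest that 4 mice allow, so no pair passed there. Each pair also sets different probe sets against each other, and fold changes of dim probe sets may be compressed. A difference within a pair may therefore lie partly in the probe sets.

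RefSeq lists 3 transcription starts with a promoter window for Pparg in build GRCm38.p6, each covering 250 bases before to 50 after the start, and the single probe set does not separate the transcripts. The first 2 windows are shown because they hold the hexamer AGGTCA, the half-site that PPAR, LXR and retinoid X receptors share, in capitals. They lie at chr6:115360894-115361193 and chr6:115362099-115362398 on the plus strand.
Pparg start 1: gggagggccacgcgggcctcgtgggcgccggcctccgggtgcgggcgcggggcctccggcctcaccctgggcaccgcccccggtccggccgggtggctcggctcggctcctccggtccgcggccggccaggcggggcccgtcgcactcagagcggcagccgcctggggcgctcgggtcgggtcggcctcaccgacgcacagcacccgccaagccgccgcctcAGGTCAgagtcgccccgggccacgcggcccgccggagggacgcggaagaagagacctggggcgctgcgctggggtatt
Pparg start 2: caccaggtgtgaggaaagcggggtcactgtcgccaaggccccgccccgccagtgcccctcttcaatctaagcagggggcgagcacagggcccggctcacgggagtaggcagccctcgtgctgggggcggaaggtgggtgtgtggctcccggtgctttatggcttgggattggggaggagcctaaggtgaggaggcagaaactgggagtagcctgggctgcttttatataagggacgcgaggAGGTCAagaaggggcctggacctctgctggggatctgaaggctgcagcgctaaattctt
The hexamer is read on the coding strand at 28 and 9 bases before the start, and the third window, at chr6:115421816-115422115, has none. The 6 genes with a window (Pparg, Cd36, Plin2, Abca1, Apoe and Nr1h3) have 11 in all. On either strand AGGTCA occurs in 4 of the 11, which belong to Pparg, Cd36 and Plin2. It occurs in 16.3% of 32841 windows of the same length in the table. The 11 windows are not independent, since some belong to the same gene and some overlap.

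Uptake of fat was represented by an enzyme and a receptor. Lpl, the lipoprotein lipase that frees fatty acids from circulating lipoproteins, stood at 1096, 1540, 1149 and 737 in bone marrow of mice 1 to 4 and at 91.7, 66.8, 72.0 and 72.2 in spleen. Mouse 2 was highest and mouse 4 lowest in bone marrow, and even the lowest bone marrow array was 8.04-fold above the highest spleen array. Lpl had the largest rise of the 10 genes, 14.6-fold (log2 fold change 3.86 ± 0.18, SE with n = 4 in each tissue, limma adjusted p = 1.2e-08). With 50 added to every intensity before the logarithm, which damps differences at the dim end, its log2 fold change was 3.19. Cd36, a membrane receptor that takes up long-chain fatty acids and oxidised lipoproteins, stood at 1220, 1416, 1238 and 885 in bone marrow and at 355, 380, 353 and 459 in spleen. The groups did not overlap, but mouse 4 had the lowest bone marrow and the highest spleen value, which left its own difference at 0.95 on the log2 scale against 1.78 to 1.90 in the other mice. Cd36 was 3.05-fold higher (1.61 ± 0.14, limma adjusted p = 2.0e-06). The rise of Lpl exceeded that of Cd36 by 2.25 on the log2 scale (exact two-sided permutation test, p = 0.0286, adjusted p = 0.0286, or 0.12 within mice).

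The Cd36 window lies at chr5:17835847-17836146 on the minus strand and is shown with its half-site, read here on the opposite strand as TGACCT, in capitals.
Cd36: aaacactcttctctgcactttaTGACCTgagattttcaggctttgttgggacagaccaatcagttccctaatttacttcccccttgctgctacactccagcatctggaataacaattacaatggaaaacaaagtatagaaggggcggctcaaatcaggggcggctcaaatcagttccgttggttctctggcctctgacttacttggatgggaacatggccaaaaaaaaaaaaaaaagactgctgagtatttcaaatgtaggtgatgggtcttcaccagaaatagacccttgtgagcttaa
Its match begins 228 bases before the start. Lpl has no window in the table used.

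The intracellular fatty acid binding proteins split. Fabp4, the form named for adipocytes and also made by macrophages, stood at 502, 680, 566 and 616 in bone marrow of mice 1 to 4 and at 109, 65.4, 90.3 and 143 in spleen. The groups were apart by 3.50-fold at their nearest values, and spleen spread more than bone marrow (SD of log2 values 0.48 against 0.19). Fabp4 was 5.99-fold higher in bone marrow (log2 fold change 2.58 ± 0.19, SE with n = 4 in each tissue, limma adjusted p = 6.4e-07). Fabp5, its close relative best known from skin and also found in macrophages, stood at 508, 640, 584 and 346 in bone marrow and at 437, 445, 435 and 606 in spleen. In mice 1 to 3 the bone marrow value was the higher by 0.22, 0.52 and 0.43 on the log2 scale, and in mouse 4 it was the lower, with a difference of -0.81. Over all arrays the log2 fold change was 0.09 ± 0.17 (limma adjusted p = 0.85), with a 95% interval from -0.28 to 0.46. Without both arrays of mouse 4, an alternative added after these values were seen, it was 0.39 (limma adjusted p = 0.021). The dimmer Fabp5 probe set had means of 387 in spleen and 406 in bone marrow, with mouse 4 again lowest in bone marrow (277) and highest in spleen (495). The annotation assigns both probe sets to Fabp5 alone. Either may read a similar locus as well, the brighter one used for the values above included. The rise of Fabp4 exceeded that of Fabp5 by 2.49 on the log2 scale. The per-array difference of Fabp4 minus Fabp5 ran from -0.04 to 0.83 in bone marrow and from -2.77 to -2.0 in spleen (exact two-sided permutation test, p = 0.0286, adjusted p = 0.0286, or 0.12 within mice).

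Storage was represented by Plin2, which encodes the protein that coats lipid droplets in most cells. It stood at 3416, 2807, 4034 and 2345 in bone marrow of mice 1 to 4 and at 754, 807, 824 and 535 in spleen. Mouse 4 was lowest in both tissues, so its own difference (2.13 on the log2 scale) lay within the range of the other mice, 1.80 to 2.29. Plin2 was 4.29-fold higher in bone marrow (log2 fold change 2.10 ± 0.17, SE with n = 4 in each tissue, limma adjusted p = 1.4e-06). Its promoter window lies at chr4:86670010-86670309 on the minus strand, with the half-site on the opposite strand, 218 bases before the start, in capitals.
Plin2: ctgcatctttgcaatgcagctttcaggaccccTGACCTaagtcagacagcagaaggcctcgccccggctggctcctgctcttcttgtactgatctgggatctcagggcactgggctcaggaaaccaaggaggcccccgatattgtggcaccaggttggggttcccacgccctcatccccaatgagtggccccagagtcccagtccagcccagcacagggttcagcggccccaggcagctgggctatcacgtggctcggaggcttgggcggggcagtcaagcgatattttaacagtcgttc

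All 3 genes of cholesterol export rose. Abca1, the transporter that loads cholesterol onto lipid-poor apolipoproteins, stood at 1133, 1321, 971 and 798 in bone marrow of mice 1 to 4 and at 154, 159, 176 and 206 in spleen. Mouse 4 was again lowest in bone marrow and highest in spleen, and its 2 arrays still differed by 1.95 on the log2 scale. Abca1 was 6.01-fold higher (log2 fold change 2.59 ± 0.14, SE with n = 4 in each tissue, limma adjusted p = 5.2e-08). Abcg1, the partner transporter that passes cholesterol to mature lipoproteins, stood at 2108, 1947, 2047 and 1917 in bone marrow and at 1267, 1205, 1144 and 1069 in spleen. It had the narrowest spread of the 10 genes in both tissues, and its groups were apart by 1.51-fold at their nearest values. Abcg1 was 1.71-fold higher (0.78 ± 0.08, limma adjusted p = 1.3e-05), the smallest rise among the 9 genes that passed. The rise of Abca1 exceeded that of Abcg1 by 1.81 on the log2 scale (exact two-sided permutation test, p = 0.0286, adjusted p = 0.0286, or 0.12 within mice). Apoe, which encodes apolipoprotein E, stood at 6436, 7566, 7281 and 6589 in bone marrow and at 1480, 1175, 1278 and 1221 in spleen. The 4 values of each tissue lay close together, and Apoe had the lowest adjusted p of the 10 genes, with a rise of 5.42-fold (2.44 ± 0.09, limma adjusted p = 1.9e-09).

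The Abca1 promoter is known for an LXR response element, a direct repeat of 2 hexamers spaced by 4 bases. Its window lies at chr4:53159846-53160145 on the minus strand, and the match to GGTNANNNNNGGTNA, that repeat without the first base of either hexamer and with any base in place of their C, is in capitals.
Abca1: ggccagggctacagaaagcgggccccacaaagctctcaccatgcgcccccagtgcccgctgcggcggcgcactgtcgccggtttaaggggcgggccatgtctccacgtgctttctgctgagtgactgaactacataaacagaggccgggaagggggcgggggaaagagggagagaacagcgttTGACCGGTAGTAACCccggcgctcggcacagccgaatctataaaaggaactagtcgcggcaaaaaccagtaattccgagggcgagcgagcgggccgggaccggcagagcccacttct
The match is on the opposite strand and begins 67 bases before the start. That motif was found in 1 of the 11 windows of these genes and in 0.719% of the 32841 windows. The repeat with a single spacing base that PPAR-gamma prefers, searched as GGTNANNGGTNA on both strands, was found in 0 of the 11 windows and in 1.11% of all. These motifs were spelled with the windows in view, and AGGTCA can overlap either of them. A match describes letters in these windows only.

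**Figure D2:**
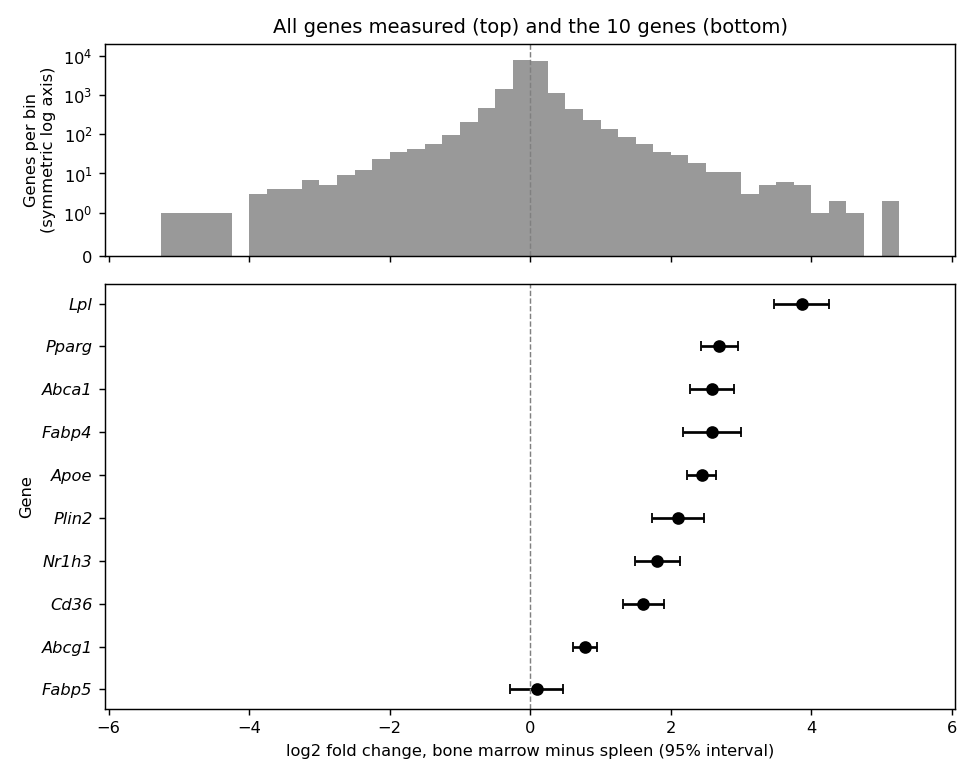
Number of genes per bin of log2 fold change over all 19938 genes (top, symmetric log axis) and log2 fold change of the 10 genes with their 95% intervals (bottom). Intervals of 9 genes lie wholly above 0, from Abcg1 at 0.78 to Lpl at 3.86, and that of Fabp5 spans 0.

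Arrays of 1 tissue differed in which of the 10 genes they held high. In bone marrow, mouse 2 had the highest value for 7 of the 10 genes, and its median deviation from the tissue mean was 0.24 on the log2 scale. Mouse 4 had the lowest bone marrow value for 6 of the 10 genes, with a median deviation of -0.30. Its largest deviations were those of Lpl (-0.57), Fabp5 (-0.55), Cd36 (-0.41), Plin2 (-0.40) and Abca1 (-0.38), while its Pparg value was 0.12 above the mean. In spleen, the array of mouse 4 was the highest for 5 genes (Pparg, Fabp4, Fabp5, Cd36 and Abca1) and the lowest for Plin2 and Abcg1. These ranks rest on 4 arrays per tissue, and no test was made of them. Over the same bone marrow arrays the summed intensity of a macrophage marker list was 31903, 41803, 36883 and 32200 for mice 1 to 4, highest in mouse 2. The monocyte sum was 17299, 19968, 18143 and 20706, highest in mouse 4, and the neutrophil sum was 30676, 24409, 32558 and 30735, lowest in mouse 2. The part of these cells in the ranks was not tested.

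**Figure D3:**
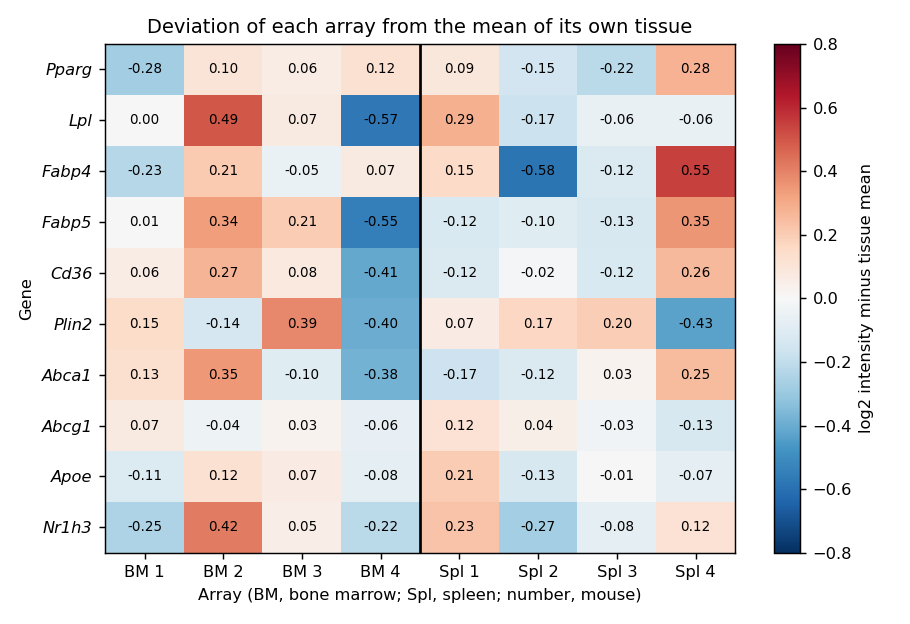
Deviation of each array from the mean of its own tissue in log2 units, for the 10 genes (rows) and 8 arrays (columns; BM, bone marrow; Spl, spleen; the number is the mouse). Bone marrow of mouse 4 is blue, below the mean, for Lpl (-0.57), Fabp5 (-0.55) and Cd36 (-0.41), and spleen of mouse 4 is red for Fabp4 (0.55) and Fabp5 (0.35).

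Other genes of the same pathways were read from 10 lists, given by counts past the threshold, which 18.5% of all genes met. Several genes stand in more than 1 list. Of 13 measured receptors and coregulators, 3 were higher and 1 lower in bone marrow. Ppargc1b, a coactivator of oxidative metabolism, was 1.75-fold higher (log2 fold change 0.81 ± 0.08, SE with n = 4 in each tissue, limma adjusted p = 1.4e-05), and Rxra, the common partner receptor, was 1.44-fold higher. Ppard, the widely expressed PPAR-delta, was 1.66-fold higher (0.73 ± 0.11, adjusted p = 4.6e-04). Ppargc1a, the coactivator best known from mitochondrial biogenesis, was 1.61-fold lower, with 57.8 in bone marrow against 92.8 in spleen (-0.68 ± 0.12, adjusted p = 0.0012). Both means were dim, below the median intensity of every array. In the alternatives that kept all arrays and this gene, its log2 fold change ran from -0.84 to -0.41. Ppara, the form prominent in liver, had a log2 fold change of -0.02 and did not pass.

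Of 19 other PPAR targets measured, 3 were higher, 1 was lower and 15 did not pass, with a median log2 fold change of 0.09. The share that passed, 21.1%, was near that of all genes. Olr1, a receptor for oxidised lipoprotein, was 2.20-fold higher (1.14 ± 0.12, SE with n = 4 in each tissue, limma adjusted p = 2.0e-05). Its means were 112 in bone marrow and 50.8 in spleen, and with 50 added before the logarithm its log2 fold change was 0.68. Cpt1a, which admits fatty acids to mitochondria, was 1.96-fold higher (0.97 ± 0.16, adjusted p = 8.7e-04). Acadl, a dehydrogenase of fatty acid oxidation, was the 1 member lower (-0.30 ± 0.10, adjusted p = 0.047). Acadl no longer passed when the bone marrow array of mouse 1 or 3, or any 1 spleen array, was left out. With mice as blocks, median centring or an intensity trend its limma adjusted p was 0.078, 0.11 and 0.056. With the bone marrow array of mouse 4 left out, 5 genes of the list were higher. Angptl4 and Pdk4, widely used PPAR reporter genes, had log2 fold changes of 0.33 and 0.06 (limma adjusted p = 0.064 and 0.79). Both were dim, with means below the median intensity of every array. Angptl4 had means of 112 in bone marrow and 88.9 in spleen, and Pdk4 had means of 40.5 and 38.9. Whether Pdk4 lay above background is unknown, so its value cannot show whether its RNA differed between the tissues.

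LXR targets outside the 10 genes moved in both directions. Of 15 measured, 6 were higher and 3 lower, with a median log2 fold change of 0.21. Mertk, a receptor for dying cells, was 5.83-fold higher (2.54 ± 0.31, SE with n = 4 in each tissue, limma adjusted p = 6.3e-05), and it is also one of the macrophage markers below. Pltp, the phospholipid transfer protein, was 2.94-fold higher (1.56 ± 0.10, adjusted p = 2.0e-07). Tgm2, a transglutaminase, was 3.36-fold lower (-1.75 ± 0.16, adjusted p = 3.6e-06), and Scd1, a fatty acid desaturase, was 1.86-fold lower at 63.6 in bone marrow and 118 in spleen. Fasn, the fatty acid synthase, was 1.74-fold lower, while Srebf1, its regulator, had a log2 fold change of 0.21 and did not pass.

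Lipoprotein and scavenger receptors had the highest list median among the 10 lists, 0.68 on the log2 scale, with 10 of 15 measured genes higher and 1 lower. Cd163, Cd68 and Marco of this list also stand among the macrophage markers below, so these lists are not separate observations. The haemoglobin scavenger receptor Cd163 was 3.63-fold higher (1.86 ± 0.12, SE with n = 4 in each tissue, limma adjusted p = 1.9e-07), and Stab1 rose by as much with a wider error (1.86 ± 0.27, adjusted p = 2.6e-04). Lrp8, an apolipoprotein E receptor, was the member that fell, to 216 in bone marrow from 471 in spleen (-1.12 ± 0.10, adjusted p = 4.2e-06). Of 15 measured genes of lysosomal sterol release and efflux, 7 were higher and none lower. Nceh1, a sterol ester hydrolase, was 2.30-fold higher and Pltp, named above, had the largest rise of that list. Of 18 measured genes of fatty acid uptake and activation, 4 were higher and none lower (22.2% past the threshold, near the 18.5% of all genes). The largest were the transport proteins Slc27a3 (2.08-fold, 143 in bone marrow against 68.7 in spleen) and Slc27a1 (1.71-fold). With the spleen array of mouse 4 left out, 1 gene of this list was lower. Gpihbp1, which anchors lipoprotein lipase to capillaries, had a log2 fold change of 0.04 and did not pass.

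Of 19 measured lipid droplet and lipolysis genes other than Plin2, 4 were higher and none lower (21.1% past the threshold, near the share of all genes), the largest being Dgat1, an enzyme of triglyceride synthesis (1.52-fold, 0.60 ± 0.13, SE with n = 4 in each tissue, limma adjusted p = 0.0039), and Abhd5, an activator of lipolysis (1.39-fold). The adipocyte droplet proteins Plin1, Plin4 and Cidec had log2 fold changes of -0.06, -0.08 and 0.04 and did not pass.

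Synthesis and oxidation lists had few calls, in both directions. The share past the threshold was 15.8% for cholesterol synthesis and 20% for fatty acid synthesis, near the 18.5% of all genes. It was 27.8% for fatty acid oxidation. Of 19 measured cholesterol synthesis genes, 1 was higher and 2 lower, with a median of -0.14. Srebf2, the regulator of the pathway, was 1.54-fold lower (-0.63 ± 0.14, SE with n = 4 in each tissue, limma adjusted p = 0.0073), and Hsd17b7 was 1.34-fold lower (-0.42 ± 0.13, adjusted p = 0.036). Hsd17b7 did not pass in 11 of 20 alternatives, among them array weights, an offset of 50 and the omission of any bone marrow array but that of mouse 4. The count of lower genes was 7 with the bone marrow array of mouse 4 left out and 6 with mice entered as blocks (replicate block). It was 1 when the bone marrow array of mouse 1, 2 or 3 or the spleen array of mouse 3 or 4 was left out. Ebp, the 1 gene higher (1.24-fold), did not pass when the bone marrow array of mouse 2 or 4 or the spleen array of mouse 1 or 4 was left out. Of 15 measured fatty acid synthesis genes 1 was higher, the desaturase Fads1 (1.61-fold), and 2 were lower, Scd1 and Fasn. With the spleen array of mouse 1 left out, 2 were higher. Of 18 measured fatty acid oxidation genes 3 were higher and 2 lower. These were led by Cpt1a and Acaa2 (1.45-fold) upward and Decr1 (1.31-fold) and Acadl downward. At least 1 of the lower genes did not pass when the bone marrow array of mouse 1 or 3, or any 1 spleen array, was left out.

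**Figure D4:**
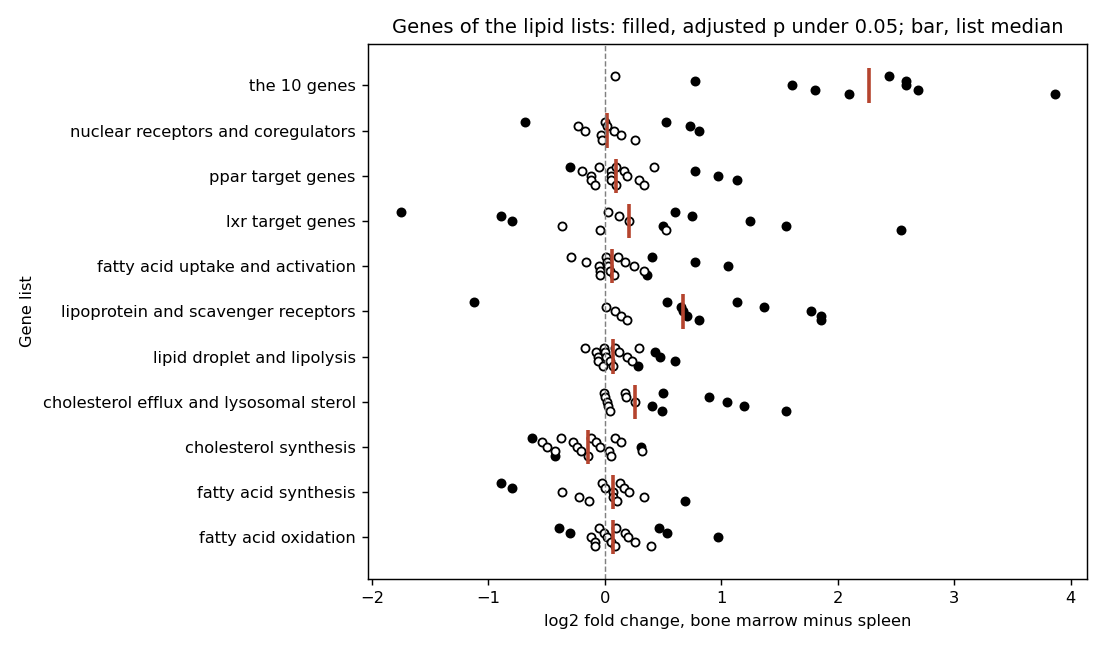
Log2 fold change (bone marrow minus spleen) of each measured gene of the 10 lipid lists, with the 10 genes described in the top row. Filled points passed an adjusted p of 0.05, open points did not, and the bar is the list median. The median is 2.27 in the top row and between -0.14 and 0.68 in the 10 lists.

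Genes with a pattern like that of Pparg were ranked by Pearson correlation of log2 intensity over the 8 arrays. The ranking left out the genes described above and names that start with Gm and a digit or end in Rik. The nearest were Aldoa (r = 0.998), Slamf9 (0.998), Clec4a3 (0.997), Hip1 (0.996) and Cybb (0.995). Aldoa is a glycolytic aldolase, Clec4a3 a C-type lectin receptor and Cybb a subunit of the phagocyte oxidase. Their group means rose from 1699 to 2554 for Aldoa, from 821 to 2957 for Clec4a3 and from 3824 to 7262 for Cybb. The correlations are a description: they reflect mainly the step between the 2 tissues. With no gene but Pparg left out, 154 of 19937 genes had an r over 0.98. Of the other 9 genes, Apoe was nearest to Pparg (0.991), followed by Fabp4 (0.989) and Lpl (0.981), and Fabp5 was farthest (0.19).

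Several cell types express these genes, so markers of each were read on the same arrays. Macrophage markers were higher in bone marrow for 12 of 15 measured genes and lower for none, with summed intensities from 31903 to 41803 in bone marrow and from 8466 to 9963 in spleen. Mrc1, the mannose receptor, was 13.7-fold higher, and the defining genes Adgre1, Mertk and Fcgr1 were 1.83-fold, 5.83-fold and 9.69-fold higher. Mertk ran from 264 to 1135 over the bone marrow arrays. The 3 that did not pass were Vcam1, Marco and Timd4, with log2 fold changes of 1.20, 0.19 and -0.31. Vcam1 ran from 265 to 2128 in bone marrow. With the spleen array of mouse 2 left out, 1 macrophage marker was lower. Monocyte markers were higher for 8 of 10, from 17299 to 20706 against 7308 to 8902, with F13a1 15.5-fold and Ccr2 6.95-fold higher. Neutrophil markers were higher for 13 of 14, from 24409 to 32558 against 2508 to 3380, with Ngp 33.8-fold, Ltf 20.1-fold and Camp 17.8-fold higher. Macrophages and monocytes express most of the 10 genes, and the part of these cells in the differences above was not tested.

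Of 7 measured adipocyte markers, 0 passed the threshold that 18.5% of all genes met, with summed intensities from 603 to 675 in bone marrow and from 608 to 706 in spleen. Adipoq, the gene of adiponectin, had a mean of 47.6 against 47.2 in spleen (log2 fold change 0.01, limma adjusted p = 0.98), and Lep, the gene of leptin, one of 72.9 against 67.5 (0.11, adjusted p = 0.52). Plin1 is given above, and Aqp7, the glycerol channel, had the largest absolute change of the list (-0.11). Of 11 endothelial markers none was higher and 1, Pecam1, was lower (1.53-fold), with sums from 1947 to 2165 against 2290 to 2458. Cdh5 and Kdr had log2 fold changes of -0.04 and -0.20 and did not pass. With the bone marrow array of mouse 4 left out, 2 endothelial markers were lower. Of 8 stromal markers 2 were higher, with sums from 916 to 1123 against 826 to 957. They were Cxcl12 (1.46-fold, 111 in bone marrow against 75.8 in spleen) and Kitl (1.27-fold, 29.6 against 23.4). Kitl did not pass when the bone marrow array of mouse 1 or 2 or the spleen array of mouse 2, 3 or 4 was left out. Lepr and Pdgfra did not pass (0.03 and -0.02).

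Of 7 erythroid markers 6 were higher, from 1295 to 1801 against 583 to 824, with Car1 4.24-fold higher, while Klf1 (0.23 on the log2 scale) did not pass. Of 6 B cell markers 4 were lower and 1 higher, from 1419 to 1558 against 3064 to 3506, with Cd22 5.10-fold and Cd79a 1.42-fold lower. Cd79b (0.08) did not pass. Classical dendritic cell markers had sums from 43948 to 47675 in bone marrow, against 45822 to 49257 in spleen. Genes that other myeloid cells also express, such as H2-Ab1 (15354 in bone marrow) and Itgax (6409), made up much of that sum. The bone marrow means of Xcr1 (141) and Cd8a lay near the median intensity of all probe sets. Of the 13 measured, 6 were lower in bone marrow, led by Xcr1 (11.2-fold), and 1 was higher, Cd209a (2.02-fold). The other 6 did not pass. They were Clec9a (1128 in bone marrow against 1043 in spleen), Batf3 (1676 against 1760), Irf8 (2428 against 2523), Sirpa (6124 against 5430), Irf4 (545 against 578) and H2-Ab1. Zbtb46, Flt3 and Itgax were 2.43-fold, 2.07-fold and 1.32-fold lower.

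**Figure D5:**
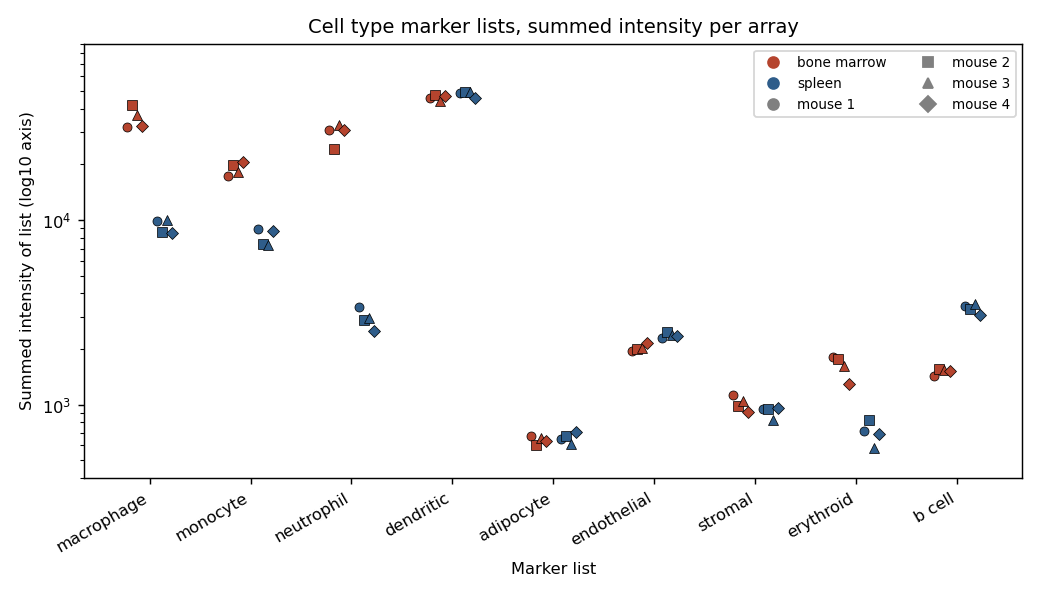
Summed probe set intensity of each cell type marker list on each array (log10 axis), with bone marrow in red, spleen in blue and 1 symbol per mouse. Macrophage, monocyte and neutrophil sums are higher on all 4 bone marrow arrays, and adipocyte sums overlap, from 603 to 675 in bone marrow and from 608 to 706 in spleen.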

How the data were processed

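Per the labels' protocols, sorted cells were lysed directly and biotinylated cDNA was made from 100 pg to 2 ng of total RNA per sample, an amplification that can widen the spread between arrays. The deposited values are linear intensities, 1 per probe set of the Affymetrix mogene 1.0 ST array and sample, and the submitters' processing notes name Affymetrix Expression Console 1.4. How background was corrected and arrays normalized is not given in those sources. Array medians lay between 125 and 135, and arrays carry no read depth. The precision is limited by the number of arrays and the spread between them.

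Of 35556 probe sets, 21789 name 1 gene in the platform annotation, 1621 several and 12146 none, and the first kind gave 19938 genes. Intensities were converted to log2, and 1 model over all genes compared the tissues with limma 3.58.1 in R 4.3.3 (lmFit, eBayes), with Benjamini-Hochberg adjustment, a threshold of 0.05 and no filter. This code was tested on simulated data. Pairs of genes were compared by an exact permutation test over arrays. The description labels tie same-numbered arrays to 1 mouse. Their deviations from the tissue means correlated over genes at 0.10, -0.09, -0.18 and -0.05 for mice 1 to 4, and the mouse entered as a block in an alternative. The 10 genes and the gene lists were chosen with earlier results of these data known. The text names all 10 genes, of each pathway list the 2 called members of largest fold in each direction, of each marker list the defining genes and the one with the largest fold, and the 5 genes most like Pparg. Any other gene named was chosen after its values were seen. Promoter windows are those of RefSeq, build GRCm38.p6, and 6 of the 10 genes had one.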

Additional observations from a re-analysis of the deposited data

Results flagged for a closer look

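Within a tissue, 2 of the 20 sets of 4 arrays (10 genes in 2 tissues) had 1 array set apart beyond Dixon's 95% critical value for its gap as a share of the range. Chance marks about 1 set in 20. Pparg in bone marrow of mouse 1 stood at 884, against 1119 to 1167 on the other 3 bone marrow arrays. Fabp5 in spleen of mouse 4 stood at 606, against 435 to 445 on the other 3 spleen arrays.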

How the results depend on the processing

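A total of 20 alternatives were run: 16 were planned, and 4, which leave out both arrays of a mouse, were added after seeing the data. The 9 genes that passed kept their direction and their call in all 20, with log2 fold changes of Lpl from 3.19 to 4.05, of Pparg from 2.38 to 2.82 and of Abcg1 from 0.73 to 0.82. The replicate block (mouse) changed no call on the 10 genes. Fabp5 ranged from -0.022 to 0.27 when 1 array was left out, the lowest without bone marrow replicate 2. Without both arrays of mouse 2, 3 or 4 it was -0.055, -0.022 and 0.39, and of these only the last passed. The 4 pair differences kept their direction in the 17 alternatives that tested them, and each passed in 12. They were not tested with array weights, an intensity trend or the dimmest 40% of genes left out. With the replicate block, an exact permutation test within mice gave an adjusted p of 0.12, the smallest 4 mice allow, for 1.81 (Abca1 minus Abcg1), 2.49 (Fabp4 minus Fabp5), 2.25 (Lpl minus Cd36) and 0.89 (Pparg minus Nr1h3). With both arrays of a mouse left out, arrays were permuted without regard to mouse. That exact permutation test cannot fall below 0.10 with 3 mice. Leaving out mice 1, 2, 3 and 4 in turn gave 1.70, 1.63, 1.87 and 2.04 for Abca1 minus Abcg1; 2.66, 2.37, 2.58 and 2.35 for Fabp4 minus Fabp5; 2.41, 2.13, 2.28 and 2.21 for Lpl minus Cd36; 0.85, 1.03, 0.84 and 0.83 for Pparg minus Nr1h3.

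Small list counts moved most, and the cause was not tested. With the dimmest 40% of genes left out, fewer genes entered the model. Cholesterol synthesis had 2 genes higher with quantile normalization, with array weights, with the replicate block and with the dimmest 40% of genes left out, and 0 to 1 without single arrays or mice. It had 4 lower with dim genes left out, 1 with array weights or an offset of 50, 6 with the replicate block, and 0 to 7 without arrays or mice. PPAR targets had 5 higher with quantile normalization and 3 to 5 without arrays or mice, and 0 lower with median centring, an intensity trend or the replicate block, and 0 to 1 without arrays. Fatty acid oxidation had 0 lower with median centring, 1 with an intensity trend or the replicate block, and 0 to 2 without arrays or mice. With dim genes left out, fatty acid synthesis had 1 lower, the coregulators 0 lower and the stromal list 0 higher. Leaving out arrays or mice gave 1 to 2 stromal and fatty acid synthesis genes higher, and 1 to 2 coregulators and endothelial genes, 0 to 1 uptake, 0 to 1 droplet and 0 to 1 macrophage genes lower.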
